A study of Mus musculus with 6 samples.

Results

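The genes described here are the mouse Fc gamma receptors, the signaling chain they share and the kinases that act directly behind them in bone marrow (BM) neutrophils. They were taken by name from the count table as Fcgr1, Fcgr2b, Fcgr3, Fcgr4, Fcer1g, Fcgrt, Syk, Fgr and Lyn, which makes 9 of 38887 genes, and the choice followed the names of the family rather than a threshold on any measured value, although it was made with earlier results of these data known. The samples were Ly6G+ cells that had been taken with beads from the BM of naive mice and of mice 1 week and 3 weeks after they received LL2 cells, a Lewis lung carcinoma line. Each of the 3 groups had 2 libraries. According to the methods, the LL2 cells carried luciferase and were given intravenously as an orthotopic model of lung cancer, and the mice were C57BL/6. They were bought at 6 to 8 weeks of age and included both sexes. The labels name no genotype or treatment that separates the groups other than the tumor and its duration. Which of these mice were sequenced and whether animals were pooled was not given in the sources used here, so the p-values below measure only the spread between these libraries.

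Fc gamma receptors bind the constant part of IgG and let neutrophils recognise antibody-coated particles and immune complexes. The activating receptors Fcgr1, Fcgr3 and Fcgr4 carry no signaling motif of their own and depend on the gamma chain Fcer1g, whose immunoreceptor tyrosine-based activation motif (ITAM) is phosphorylated by Src-family kinases and then docks the kinase Syk. Fcgr2b carries an inhibitory motif (ITIM) instead and recruits the lipid phosphatase encoded by Inpp5d. Fgr and Lyn are Src-family kinases of neutrophils. Lyn also phosphorylates inhibitory motifs.

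Both motifs lie in these transcripts and are shown as the DNA that encodes them, because they separate the activating from the inhibitory arm. They are read 5′ to 3′ along the minus strand of GRCm38, and the capitals mark the codons of the tyrosines and of the leucines and isoleucine that define each motif.
Fcer1g ITAM: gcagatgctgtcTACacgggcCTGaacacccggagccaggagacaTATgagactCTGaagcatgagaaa
Fcgr2b ITIM: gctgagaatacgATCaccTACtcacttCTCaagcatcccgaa
The ITAM segment spans chr1:171229877-171230084 across exons 4 to 5 of transcript Fcer1g-201, and the ITIM segment is at chr1:170961059-170961100 in exon 8 of Fcgr2b-201. Fcgr2b, Fcgr3, Fcgr4 and Fcer1g all lie on chromosome 1, with Fcgr4 between Fcgr2b and Fcgr3. Fcgr2b spans 170958617 to 170976547, Fcgr4 171018920 to 171029761, Fcgr3 171051174 to 171064935 and Fcer1g 171229572 to 171234365. Fcgr1 is on chromosome 3, Fgr and Lyn are on chromosome 4, Fcgrt on 7 and Syk on 13.

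Fcgr2b and Fcgr3 resemble each other closely in the part that encodes their outer domains. Their coding sequences were identical at 88.0% of 775 aligned bases, against 72.2% for Fcgr2b and Fcgr4 and 69.9% for Fcgr3 and Fcgr4. The longest run that the inhibitory and the activating receptor share is 129 bases long and is shown because a read inside it cannot be told apart between them.
Fcgr2b and Fcgr3 shared run: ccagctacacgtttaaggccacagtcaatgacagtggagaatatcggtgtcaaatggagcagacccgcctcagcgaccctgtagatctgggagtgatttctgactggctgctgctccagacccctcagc
It lies in exons 3 to 4 of both genes, at chr1:170966674-170968081 in Fcgr2b and chr1:171054167-171057792 in Fcgr3. Of all 75-base stretches of their transcripts, 2.7% in Fcgr2b and 5.42% in Fcgr3 also occurred in another gene, and of all 50-base stretches 4.38% and 9.58%. For Lyn these shares were 10.1% and 13.4%, all with the pseudogene Gm11787. Fcgr1, Fcgr4, Fcer1g, Fcgrt, Syk and Fgr shared none. Values of Fcgr2b and Fcgr3 are therefore uncertain by the reads that the counting program had to divide between them. Lyn also overlaps exons of Gm26857 on the other strand, which held 3 to 10 counts a library. Fcgr2b overlaps exons of Gm38204 on the other strand, which has no counts of its own in the data. Whether its reads were counted as Fcgr2b was not tested.

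The libraries held 11994158 to 14127919 counts, so that 3 counts, the least taken as detected, corresponded to 0.212 to 0.25 CPM (counts relative to all counts of a library), a limit that includes counting error and nothing else. CPM below are further scaled by TMM factors, and TPM are counts per length of exon scaled to the same sum in each library. The neutrophil markers S100a8, S100a9, Ngp, Camp and others summed to between 285000 and 348700 CPM, with S100a8 at 147300 to 228700 CPM, whereas Ly6g itself had only 0.491 to 2.14 CPM. Of the 12 neutrophil markers, 1 was higher and 0 lower at 1 week, and 2 were higher and 4 lower at 3 weeks against naive mice. Those lower at 3 weeks included the granule gene Camp, with 17030 and 19940 CPM in naive mice against 8100 and 9935 CPM, and Cebpe, a regulator of granule genes, with 87.4 and 93.3 CPM against 44.4 and 46.6 CPM. Markers of other cells were present at low levels and moved between the groups. All 5 promyelocyte markers were higher at 3 weeks than in naive mice, with sums of 56.6 and 47.2 CPM in naive, 55.5 and 94.0 in one-week and 257 and 354 in three-week LL2 mice. All 11 B cell markers were lower at 3 weeks, with sums of 72.2 and 94.0, 76.6 and 63.4, and 25.1 and 16.4 CPM. Basophil, mast cell and eosinophil markers reached 87.4 and 95.2 CPM at 1 week against 40.4 and 43.6 in naive mice and 22.4 and 30.9 at 3 weeks, although Fcer1a did not pass 1.19 CPM and Ms4a2 did not pass 0.2 CPM in any library. Monocyte and macrophage markers summed to 1514 to 1957 CPM, and 1 of 13 was higher and 2 were lower at 3 weeks than in naive mice. T and NK cell markers stayed between 3.4 and 9.99 CPM, and erythroid markers lay between 1187 and 1495 CPM except in the second three-week library, which had 568. In bulk RNA, fewer cells of a type and less RNA per cell cannot be told apart. The part of these cells in the results below was not tested except where a value is given.

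**Figure D1:**
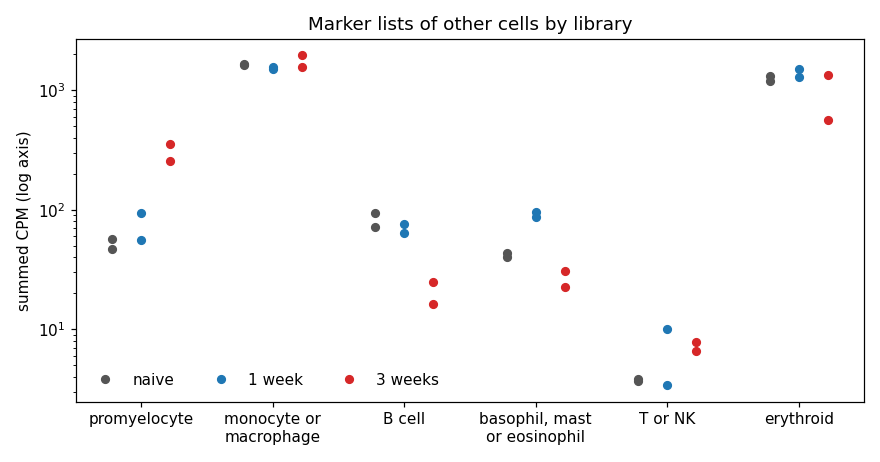
Summed CPM (log axis) of marker lists of 6 other cell types in each library, with 2 points for each group. Promyelocyte markers were highest and B cell markers lowest in the 2 three-week libraries, and basophil, mast cell and eosinophil markers were highest in the 2 one-week libraries.

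Per length, the gamma chain was the most abundant of these transcripts and the activating receptor Fcgr3 the second. In naive mice, Fcer1g reached 767 ± 53.3 TPM (SD, n = 2) and Fcgr3 441 ± 45.3 TPM, and both exceeded the kinase Lyn with 121 ± 5.26 TPM. Fgr with 75.7 ± 1.78 TPM and Fcgr4 with 73.0 ± 8.21 TPM followed, and their ranges overlapped. Syk was lower with 38.8 ± 2.7 TPM. The neonatal Fc receptor Fcgrt had 7.05 ± 1.78 TPM, the inhibitory Fcgr2b 2.68 ± 0.0825 TPM and the high-affinity receptor Fcgr1 2.23 ± 0.521 TPM, and the last 2 were separated by only 2.6 against 2.62 TPM in their nearest libraries. This order depends on the exon length used, which joins all annotated exons of a gene and is 9362 bases for Syk and 5790 for Fcgr2b. In CPM, without length, the naive mean of Syk (263) exceeded those of Fgr (213) and Fcgr4 (66.4). That of Fcgr2b (11.3 CPM) likewise exceeded that of Fcgr1 (4.24 CPM). All 9 genes passed the filter on low counts.

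The order was almost the same in each group. At 1 week Fcgr2b and Fcgr1 overlapped with means of 3.22 and 3.07 TPM, and Fgr and Fcgr4 overlapped again with 74.1 and 70.2 TPM. At 3 weeks Fcgr4 stood above Fgr, with 101 and 105 TPM against 95.5 and 97.3 TPM in the separate libraries. The mean of Fcgr1 (2.265 TPM) then exceeded that of Fcgr2b (2.103 TPM), and their ranges overlapped. Fcgr3 made up 80.6% to 85% of the summed TPM of the 4 IgG receptors Fcgr1, Fcgr2b, Fcgr3 and Fcgr4 in every library.

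**Figure D2:**
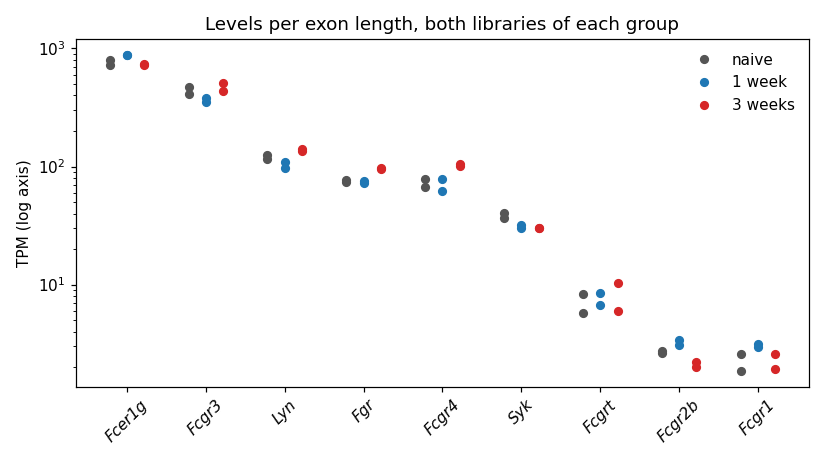
TPM per exon length (log axis) of the 9 genes in both libraries of each group, ordered by the naive mean. Fcer1g and Fcgr3 lead in all 6 libraries, Fcgr2b and Fcgr1 are lowest, and the 2 three-week points of Fcgr4 lie above those of Fgr.

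The study compared early and advanced stages of the tumor with naive mice. None of the 9 genes passed the test at 1 week, while 3 rose at 3 weeks against naive mice (Fcgr4, Fgr and Lyn) and 4 at 3 weeks against 1 week (Fcgr3, Fcgr4, Fgr and Lyn). Genes were called at a Benjamini-Hochberg adjusted p under 0.05 in edgeR's quasi-likelihood test over 12259 genes, and of these 7.99% were called at 1 week (4.23% higher, 3.76% lower), 21.4% at 3 weeks against naive mice (12% higher, 9.42% lower) and 22.5% at 3 weeks against 1 week (12.9% higher, 9.57% lower). At 1 week, 2 of the 9 genes, Fcgr3 and Syk, had an unadjusted p under 0.05, and DESeq2 called 1, Syk. The median log2 fold change of the 9 genes was -0.04, 0.29 and 0.30 in these comparisons, beside 0.01, 0.04 and -0.02 for all genes tested. Scaling by library size alone moved the last 2 medians of all genes by -0.15 and -0.20 on the log2 scale. It also moved the share of called genes that were higher from 52.9%, 56% and 57.5% to 68.6%, 34.7% and 28.6%, and DESeq2 gave 41.9% at 1 week. The comparisons share their naive or one-week libraries, so their values are not independent.

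**Figure D3:**
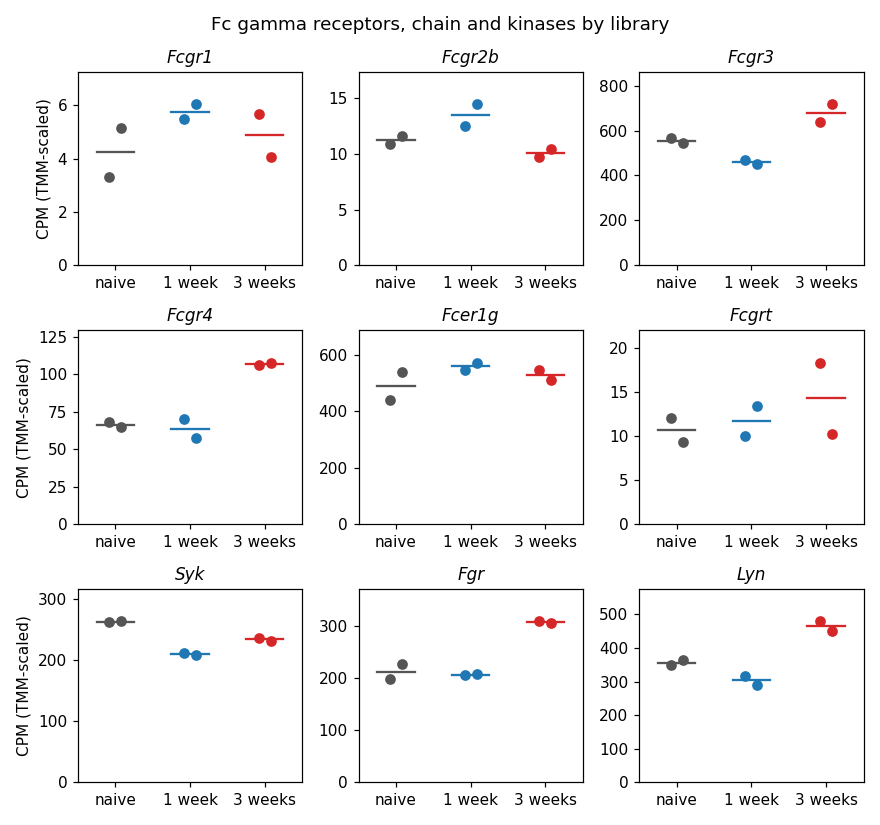
TMM-scaled CPM of each of the 9 genes in the 2 libraries of each group, with a line at the mean and each axis starting at 0. The three-week points of Fcgr3, Fcgr4, Fgr and Lyn lie above all other points, and the one-week points of Fcgr3, Lyn and Syk lie below all others. The three-week points of Fcgr1, Fcer1g and Fcgrt overlap with those of naive mice.

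Among the activating receptors, Fcgr4 rose at 3 weeks against both other groups. Fcgr4, which binds IgG2a and IgG2b immune complexes, had 68.2 and 64.7 CPM in the libraries of naive mice, 70.0 and 57.3 CPM at 1 week and 106 and 108 CPM at 3 weeks. Both three-week libraries lay above all others, and the naive values lay within the range of the one-week values. The increase was 1.61-fold against naive mice (95% interval 1.33 to 1.95, log2 fold change 0.69 ± 0.127 SE, adjusted p = 0.00186) and 1.68-fold against 1 week (1.39 to 2.03, adjusted p = 9.46e-04). At 1 week against naive mice the log2 fold change was -0.06 (95% interval -0.34 to 0.21, adjusted p = 0.83). The 2 three-week calls of Fcgr4 were kept in all 14 other fits, with an adjusted p of at most 0.0202 and 0.0291.

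Fcgr3, the low-affinity receptor that takes most of the IgG receptor reads, had its lowest values at 1 week and its highest at 3 weeks. It had 566 and 544 CPM in naive mice, 467 and 452 CPM in one-week LL2 mice and 639 and 717 CPM in three-week LL2 mice. No 2 groups overlapped in CPM. In TPM the naive values of 474 and 409 overlapped the three-week values of 438 and 507. With 2 libraries against 2, a two-sided exact permutation p cannot go below 0.333, so a lack of overlap alone is weak evidence. Between 3 weeks and 1 week it rose 1.48-fold (95% interval 1.25 to 1.74, log2 fold change 0.56 ± 0.111 SE, adjusted p = 0.00275). Neither step against naive mice passed the test, with -0.27 ± 0.111 at 1 week (adjusted p = 0.151) and 0.29 ± 0.11 at 3 weeks (adjusted p = 0.0818). The call between 3 weeks and 1 week held in all 14 other fits, with a largest adjusted p of 0.0488.

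Fcgr1, the only high-affinity receptor for monomeric IgG in this family, had 42 to 82 counts in a library. Its levels were 3.32 and 5.16 CPM in naive mice, 5.47 and 6.04 CPM at 1 week and 5.66 and 4.08 CPM at 3 weeks. The values of three-week and naive mice overlapped, and the log2 fold changes of 0.44, 0.20 and -0.24 had SEs of 0.286 to 0.296 and adjusted p-values of 0.402, 0.687 and 0.592. The interval at 3 weeks against naive mice ran from -0.44 to 0.84. It takes in no change as well as the 0.69 measured for Fcgr4, so neither is excluded.

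The inhibitory receptor Fcgr2b had its highest values at 1 week and its lowest at 3 weeks, opposite to Fcgr3, and no comparison passed the test. It had 10.9 and 11.6 CPM in naive mice, 12.5 and 14.5 CPM at 1 week and 9.7 and 10.5 CPM at 3 weeks. The groups did not overlap, with 125 to 194 counts in a library. The log2 fold change between 3 weeks and 1 week was -0.42 ± 0.174 SE (adjusted p = 0.101), that at 1 week 0.26 ± 0.173 (adjusted p = 0.406) and that at 3 weeks against naive mice -0.16 ± 0.177 (adjusted p = 0.575). With scaling by library size alone, the fall between 1 week and 3 weeks passed the test (-0.62, adjusted p = 0.0225). B cells, whose main Fc receptor is Fcgr2b, had lower markers at 3 weeks as given above, and 0 of the 11 passed the test at 1 week. Their part in the values of Fcgr2b was not tested. Summing Fcgr2b, Fcgr3 and Fcgr4 into one feature sets aside how reads were divided between the first 2. The sum had log2 fold changes of -0.24 at 1 week (adjusted p = 0.212), 0.33 at 3 weeks (adjusted p = 0.0483) and 0.57 between them (adjusted p = 0.00247). Fcgr3 alone held 6061 to 9329 counts in a library, so the sum does not show how Fcgr2b itself moved. It also includes the rise of Fcgr4, which shared no stretch of 50 or 75 bases with another gene.

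The ratio of Fcgr3 to Fcgr2b within a library does not depend on scaling between libraries. Per kilobase of exon it was 173 and 156 in naive mice, 124 and 104 at 1 week and 220 and 229 at 3 weeks. It was lowest in both one-week libraries and highest in both three-week libraries, and it is given as a description without a test. In counts, without length, the group means were 49.3, 34.2 and 67.3. The exon length of Fcgr2b, 5790 bases, includes transcripts with retained introns, so the ratio per kilobase is an upper reading. The ratio of Fcgr4 to Fcgr2b was 28.8 and 25.7 in naive mice, 25.7 and 18.3 at 1 week and 50.5 and 47.6 at 3 weeks.

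**Figure D4:**
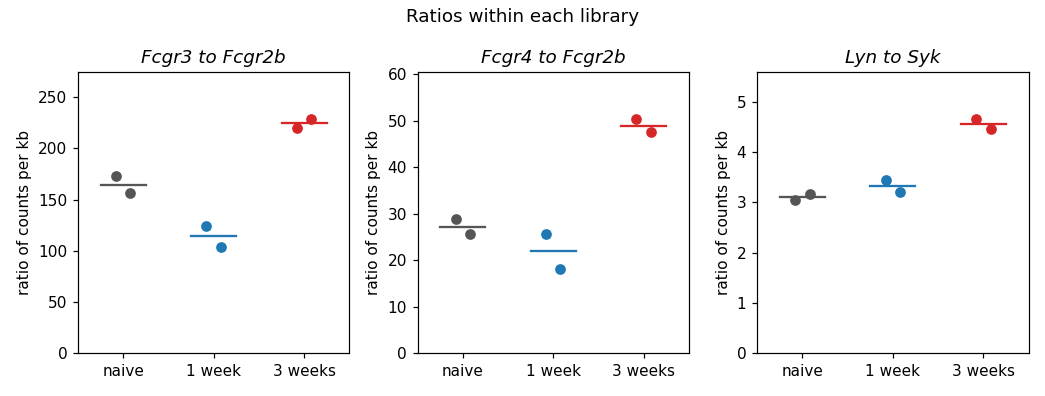
Ratios of counts per kilobase of exon within each library, with 2 points and a line at the mean for each group. Fcgr3 to Fcgr2b, Fcgr4 to Fcgr2b and Lyn to Syk were all highest in the 2 three-week libraries, and the first was lowest in the 2 one-week libraries.

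Fcer1g, the shared gamma chain, was not called in any comparison. Its libraries had 439 and 539 CPM in naive mice, 547 and 573 CPM at 1 week and 546 and 513 CPM at 3 weeks. The three-week values overlapped those of naive mice, and both one-week values were the highest. Against naive mice its log2 fold change was 0.20 ± 0.121 at 1 week (adjusted p = 0.368) and 0.12 at 3 weeks with a 95% interval of -0.15 to 0.38 (adjusted p = 0.56). This interval ends below the 0.69 measured for Fcgr4 in the same comparison. Per length, Fcer1g exceeded the sum of Fcgr1, Fcgr3 and Fcgr4 by a ratio of 1.32 and 1.68 in naive mice, 1.92 and 2.13 at 1 week and 1.37 and 1.17 at 3 weeks. The ratio was highest in both one-week libraries.

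Tyrobp (DAP12), the other ITAM chain of myeloid cells, rose at 1 week while Fcer1g did not pass the test, and this difference between the genes was not tested. Tyrobp had 514 and 611 CPM in naive mice, 842 and 792 CPM at 1 week and 664 and 653 CPM at 3 weeks. The rise at 1 week was 1.45-fold (log2 fold change 0.54 ± 0.117 SE, adjusted p = 0.0147). It was lost without naive replicate 1 (0.42, adjusted p = 0.144), one-week replicate 1 (0.49, adjusted p = 0.125) or one-week replicate 2 (0.58, adjusted p = 0.0693).

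Fcgrt encodes the heavy chain of the neonatal Fc receptor, which returns IgG from endosomes and does not signal. It had 12.03 and 9.33 CPM in naive mice, 9.95 and 13.4 CPM at 1 week and 18.3 and 10.2 CPM at 3 weeks. One three-week library stood above the rest and the other lay among the naive and one-week values. The log2 fold change at 3 weeks was 0.42 ± 0.258 (adjusted p = 0.284). It was 0.78 without three-week replicate 2 (adjusted p = 0.034) and -0.05 without three-week replicate 1 (adjusted p = 0.926). In replicate 1 against replicate 2 of this group, monocyte and macrophage markers summed to 1957 against 1557 CPM, with 10 of 13 higher, and erythroid markers to 1329 against 568 CPM, with 8 of 8 higher. Their part in the Fcgrt value was not tested.

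Fgr and Lyn rose at 3 weeks. Fgr, a Src-family kinase of myeloid cells, had 198 and 228 CPM in naive mice, 207 and 208 CPM at 1 week and 310 and 307 CPM at 3 weeks. The three-week values lay above all others, and the one-week values lay within the naive range. The rise was 1.45-fold against naive mice (95% interval 1.22 to 1.72, log2 fold change 0.53 ± 0.113 SE, adjusted p = 0.00463) and 1.49-fold against 1 week (1.26 to 1.76, adjusted p = 0.00281). Against naive mice it missed the threshold without naive replicate 1, the library with the lower Fgr value (0.41, adjusted p = 0.0683).

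Lyn, which acts in both activating and inhibitory signaling, had 348 and 364 CPM in naive mice, 317 and 291 CPM at 1 week and 480 and 450 CPM at 3 weeks. No groups overlapped, and the one-week libraries were lowest. It rose 1.53-fold between 1 week and 3 weeks (95% interval 1.3 to 1.8, log2 fold change 0.61 ± 0.11 SE, adjusted p = 0.00147) and 1.31-fold between naive mice and 3 weeks (1.11 to 1.54, adjusted p = 0.0245). The second call was less firm. It was kept in 7 of 14 other fits and was lost with library size scaling (0.24, adjusted p = 0.143) and in a fit of only the groups compared (0.35, adjusted p = 0.0628). It was also lost without naive replicate 1 (0.32, adjusted p = 0.15), naive replicate 2 (0.43, adjusted p = 0.0528), one-week replicate 1 (0.35, adjusted p = 0.0619), one-week replicate 2 (0.35, adjusted p = 0.0608) or three-week replicate 1 (0.35, adjusted p = 0.113). The decrease at 1 week did not pass the test (-0.23 ± 0.11, adjusted p = 0.234).

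Per length, the ratio of Lyn to Fgr was 1.67 and 1.52 in naive mice, 1.46 and 1.33 at 1 week and 1.47 and 1.39 at 3 weeks. The naive libraries had the highest ratios, and those of the tumor-bearing groups overlapped.

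Syk, the kinase that binds the phosphorylated ITAM, was not called in any comparison by edgeR. It had 262 and 264 CPM in naive mice, 212 and 209 CPM at 1 week and 237 and 232 CPM at 3 weeks. Its highest values were those of naive mice and no groups overlapped in CPM. In TPM the one-week values of 32.0 and 30.0 overlapped the three-week values of 30.1 and 30.4. The log2 fold change at 1 week was -0.32 ± 0.106 SE (adjusted p = 0.0798), which DESeq2 called in a fit of all libraries (-0.35, adjusted p = 0.0225) and of the groups compared (-0.33, adjusted p = 0.0356). At 3 weeks it was -0.17 against naive mice (95% interval -0.40 to 0.06, adjusted p = 0.294) and 0.16 against 1 week (adjusted p = 0.319). Per length, the ratio of Lyn to Syk was 3.05 and 3.17 in naive mice, 3.44 and 3.21 at 1 week and 4.66 and 4.47 at 3 weeks. Both three-week ratios exceeded the other 4.

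**Figure D5:**
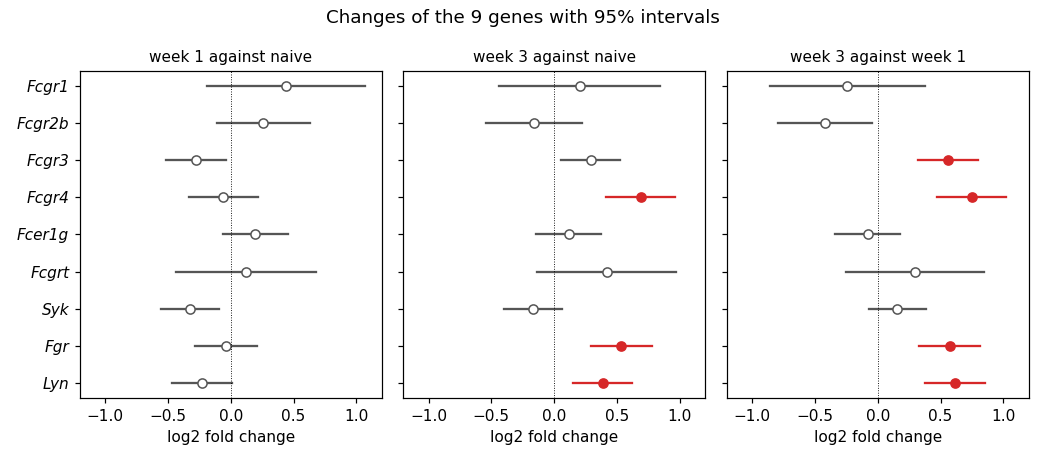
Log2 fold change of the 9 genes in the 3 comparisons with 95% intervals, with filled red points for genes with an adjusted p under 0.05. No point is filled at 1 week, and Fcgr4, Fgr and Lyn are filled in both three-week panels and Fcgr3 only against 1 week.

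Of the genes that rose between 1 week and 3 weeks, the promoters of Fcgr3, Fcgr4 and Fgr are shown beside that of Fcgr2b, which was not called, and that of Lyn is not shown. RefSeq promoters were matched for 8 of the 9 genes, all but Lyn, from 250 bases before to 50 after the start (GRCm38.p6), and capitals mark GAGGAA on either strand, the core of the motif of the myeloid factor PU.1.
Fcgr4 promoter: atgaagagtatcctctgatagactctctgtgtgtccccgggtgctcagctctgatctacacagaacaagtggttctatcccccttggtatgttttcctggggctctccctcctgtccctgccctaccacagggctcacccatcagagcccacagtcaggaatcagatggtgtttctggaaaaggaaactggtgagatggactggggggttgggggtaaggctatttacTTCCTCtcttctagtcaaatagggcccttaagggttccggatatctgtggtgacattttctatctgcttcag
Fgr promoter: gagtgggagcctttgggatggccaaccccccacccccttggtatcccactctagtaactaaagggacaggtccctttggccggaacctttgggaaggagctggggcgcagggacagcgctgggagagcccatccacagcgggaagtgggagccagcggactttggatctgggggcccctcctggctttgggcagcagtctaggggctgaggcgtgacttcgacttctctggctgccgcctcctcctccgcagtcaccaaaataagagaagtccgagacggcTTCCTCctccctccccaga
Fcgr3 promoter: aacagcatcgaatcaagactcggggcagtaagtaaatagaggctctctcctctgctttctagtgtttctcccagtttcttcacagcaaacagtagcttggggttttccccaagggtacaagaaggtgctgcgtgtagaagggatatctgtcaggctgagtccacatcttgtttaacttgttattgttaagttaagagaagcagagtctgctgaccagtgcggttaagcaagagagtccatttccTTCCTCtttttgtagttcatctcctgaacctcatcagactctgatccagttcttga
Fcgr2b promoter: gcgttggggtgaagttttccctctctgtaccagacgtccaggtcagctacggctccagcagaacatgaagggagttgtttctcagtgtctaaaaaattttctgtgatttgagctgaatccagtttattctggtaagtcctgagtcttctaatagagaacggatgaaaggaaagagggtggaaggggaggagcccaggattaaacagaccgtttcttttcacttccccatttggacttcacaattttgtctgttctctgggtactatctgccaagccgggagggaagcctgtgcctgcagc
The windows are chr1:171018676-171018975 on the plus strand for Fcgr4, chr4:132973845-132974144 on the plus strand for Fgr, chr1:171059354-171059653 on the minus strand for Fcgr3 and chr1:170976022-170976321 on the minus strand for Fcgr2b. The match began 22 bases before the start in Fcgr4, 6 before it in the Fcgr3 entry shown and 31 after it in Fgr. In all, 5 of the 8 genes had a match in at least 1 entry, the others being Fcgr1 and 1 of 2 entries of Syk. Fcgr1 and Syk were not called by edgeR with TMM scaling and all libraries. Nor were Fcgr2b, Fcer1g and Fcgrt, which had no match. Of 32851 RefSeq promoter entries of this length, 28.3% had one. That share counts entries and not genes, and Fcgr3 and Syk with 2 entries each could match in either. TTCNNNGAA, the core of the site bound by STAT factors, was found in Fcgr1 alone, apart from its GAGGAA, and in 8.3% of all promoters. A match describes the letters of the window only.

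The genes whose pattern over the 6 libraries was most like that of the 3 genes with the widest range, by the root mean square difference of centred log2 CPM among 12259 genes, were as follows. For Fgr they were Fpr2, a formyl peptide receptor, with a difference of 0.015, Atp6v1g1, a subunit of the proton pump, with 0.031, and Serpinb1a, an inhibitor of neutrophil proteases, with 0.041. Fpr2 had 618 and 718 CPM in naive mice, 664 and 648 CPM at 1 week and 967 and 960 CPM at 3 weeks. For Lyn they were Btf3l4, Chm and Ykt6, with 0.020, 0.035 and 0.037. For Fcgr4 they were Inpp5j, Prpf18 and Kctd12, with 0.036, 0.037 and 0.046.

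The wider pathway was described by 7 lists of 109 genes, of which 96 were tested. At 1 week 3 of the 96 were higher and 10 lower, at 3 weeks against naive mice 20 were higher and 10 lower, and at 3 weeks against 1 week 31 were higher and 10 lower. These were 3.12% and 10.4%, 20.8% and 10.4%, and 32.3% and 10.4% of the tested list genes, beside 4.23% and 3.76%, 12% and 9.42%, and 12.9% and 9.57% of all genes tested. Of the other Src-family kinases listed, Src, Yes1 and Frk had too few counts to be tested. Lck, the kinase of T cells, was called higher at 1 week (adjusted p = 0.0211) from 2.4 and 9.55 CPM against 1.19 and 1.06 CPM in naive mice, and it was not called without one-week replicate 2 (adjusted p = 0.358), naive replicate 1 (0.17) or naive replicate 2 (0.114). The 8 T and NK cell markers summed to 9.99 CPM in one-week replicate 2, the highest of all libraries. Of these, Cd3e, Cd3g and Ncr1 were highest there, with 0.82, 1.12 and 0.224 CPM. Nkg7 was highest in three-week replicate 2 (7.23 CPM), Klrb1c in naive replicate 2 (0.819 CPM) and Gzma in naive replicate 1 (0.633 CPM). Trac and Prf1 had no counts. The part of T cells in the Lck values was not tested. Blk, the kinase of B cells, had 0.95 and 1.47 CPM in naive mice and 0.0776 and 0 CPM at 3 weeks (adjusted p = 0.00429), beside the lower B cell markers.

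Of 15 regulators of Src-family kinases and inhibitory phosphatases, 2 were higher and 2 lower at 3 weeks against naive mice, 3 higher and 1 lower against 1 week, and 2 lower at 1 week. Against naive mice at 3 weeks these were 13.3% and 13.3% of the list, near the 12% and 9.42% of all genes tested. Against 1 week they were 20% and 6.67%, beside 12.9% and 9.57%. Those lower at 1 week were 13.3%, beside 3.76%. Csk, which switches Src-family kinases off, had 93.3 to 119 CPM in all libraries and was not called in any comparison (adjusted p = 0.853, 0.391 and 0.236). Ptprc (CD45), the phosphatase that relieves this block, fell to 0.702-fold at 1 week, from 433 and 402 to 276 and 310 CPM (adjusted p = 0.016), a call that was lost without naive replicate 1 (0.123), one-week replicate 1 (0.161) or one-week replicate 2 (0.0616). Ptprj (CD148), a phosphatase with a like role, rose at 3 weeks from 31.7 and 28.2 to 49.9 and 44.5 CPM (1.58-fold, adjusted p = 0.00429).

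Ptpn6 (SHP-1), which ITIM receptors recruit, fell to 0.754-fold at 3 weeks, from 171 and 181 to 135 and 130 CPM (adjusted p = 0.0185). The call was lost without naive replicate 2 (0.0885), three-week replicate 1 (0.0695) or three-week replicate 2 (0.106). Inpp5d (SHIP-1), the partner of Fcgr2b, had 122 to 138 CPM and was not called (adjusted p = 0.41, 0.565 and 0.732). Pag1, an anchor of Csk, rose at 3 weeks against naive mice (1.3-fold, adjusted p = 0.024), a call lost without any 1 library (adjusted p from 0.0615 to 0.107) and with library size scaling (0.167). The adaptor Dok2 fell (0.722-fold, adjusted p = 0.0266), and this was lost without any 1 of the 4 libraries compared (0.0506 to 0.147) and in DESeq2 (0.0539). Cbl, a ubiquitin ligase that marks Syk for degradation, fell at 1 week (0.647-fold, adjusted p = 0.0346), and this was lost without any 1 of the 4 libraries compared (0.105 to 0.181) and in DESeq2 (0.0537).

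Of 26 adaptors and effectors that act behind Syk, 5 were higher and 2 lower at 3 weeks against naive mice, 8 higher and 1 lower against 1 week, and 1 higher and 4 lower at 1 week. At 3 weeks against naive mice these were 19.2% and 7.69% of the list, beside 12% and 9.42% of all genes tested. Against 1 week they were 30.8% and 3.85%, beside 12.9% and 9.57%. At 1 week they were 3.85% and 15.4%, beside 4.23% and 3.76%. The median log2 fold change of the list was -0.15 at 1 week, -0.08 at 3 weeks and 0.18 between them, and the last 2 were -0.23 and -0.02 with library size scaling. Lat2 (NTAL), a membrane adaptor, rose from 9.65 and 15.1 CPM in naive mice and 13.1 and 10.7 CPM at 1 week to 64.5 and 50.9 CPM at 3 weeks (4.66-fold against naive mice, adjusted p = 8.79e-06). Promyelocyte markers rose in the same 2 libraries, and their part in this was not tested. Gab2, a docking protein for PI3 kinase, fell at 1 week and rose at 3 weeks, with 41.4 and 45.4, 27.2 and 24.4, and 60.3 and 61.8 CPM (adjusted p = 0.00456 and 0.0133). The fall was not called without one-week replicate 2 (-0.67, adjusted p = 0.0595).

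Pik3r1, the regulatory subunit of PI3 kinase, fell to 0.602-fold at 1 week, from 88.3 and 76.95 to 50.1 and 49.4 CPM (adjusted p = 0.00423), which was lost without naive replicate 1 (0.0649). Plcg2, the phospholipase that Syk activates, fell to 0.739-fold at 3 weeks, from 64.3 and 70.9 to 50.03 and 49.91 CPM (adjusted p = 0.0193), which was lost without naive replicate 2 (0.111), three-week replicate 1 (0.0923) or three-week replicate 2 (0.0889). The catalytic subunit Pik3cb also fell at 3 weeks (0.718-fold, adjusted p = 0.0132), lost without naive replicate 1 (0.0633) or three-week replicate 1 (0.1). Bcl10, which passes the signal to NF-kappaB, rose (1.53-fold, adjusted p = 0.00504). Lat, the T cell counterpart of Lat2, was called higher at 1 week with 2.14 and 6.41 CPM (adjusted p = 0.0427) and was not without one-week replicate 2 (0.473), naive replicate 1 (0.169) or naive replicate 2 (0.197), nor by DESeq2 (0.0536).

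Another list of 21 genes held the actin machinery of phagocytosis and also the oxidase subunit Ncf4. At 3 weeks against naive mice 6 were higher, Ncf4 among them, and 0 lower. Against 1 week 9 were higher and 0 lower, and at 1 week 0 were higher and 1 lower. Those higher were 28.6% and 42.9% of the list, beside 12% and 12.9% of all genes tested. The other 15 did not pass the test against naive mice at 3 weeks. The 1 lower at 1 week was 4.76% of the list, beside 3.76% of all genes tested. The median log2 fold changes at 3 weeks were 0.26 and 0.36, beside 0.04 and -0.02 for all genes, and 0.11 and 0.16 with library size scaling. Subunits of the Arp2/3 complex, which branches actin filaments, were among those called. Arpc3 had 1391 and 1375 CPM in naive mice, 995 and 1100 CPM at 1 week and 1934 and 1770 CPM at 3 weeks, with adjusted p = 0.0429 for the fall and 0.0164 for the rise against naive mice. The fall was lost without any 1 of the 4 libraries compared (0.0868 to 0.289). Actr2 rose 1.28-fold (adjusted p = 0.0342) and Actr3 1.34-fold (adjusted p = 0.0131), the latter lost without naive replicate 1 (0.0761) or three-week replicate 2 (0.0593) and with library size scaling (0.0807). Ncf4, the oxidase subunit that binds the phagosome membrane, rose 1.38-fold (adjusted p = 0.0127), lost without naive replicate 1 (0.14) and with library size scaling (0.0538).

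Among other receptors, 5 of 14 with an ITIM and 1 of 10 ITAM chains and coupled receptors rose at 3 weeks against naive mice. Of 14 ITIM receptors tested, 5 were higher and 3 lower at 3 weeks against naive mice, 7 higher and 3 lower against 1 week, and 0 higher and 1 lower at 1 week. At 3 weeks against naive mice these were 35.7% and 21.4% of the list, beside 12% and 9.42% of all genes tested. Against 1 week they were 50% and 21.4%, beside 12.9% and 9.57%. The 1 lower at 1 week was 7.14%, beside 3.76%. Pirb, an inhibitory receptor for MHC class I, had 233 and 275 CPM in naive mice, 220 and 235 CPM at 1 week and 500 and 460 CPM at 3 weeks (1.89-fold against naive mice, adjusted p = 1.69e-04). Cd300lf, which binds lipids, had 355 and 416, 284 and 306, and 696 and 612 CPM (1.7-fold, adjusted p = 6.63e-04). Siglece, a sialic acid receptor, fell at 1 week and rose at 3 weeks, with 54.7 and 56.0, 37.6 and 36.5, and 81.8 and 74.1 CPM (adjusted p = 0.0127 and 0.0102). The fall was lost without any 1 of the 4 libraries compared (0.0502 to 0.0997). Cd72, a receptor of B cells, fell to 0.207-fold at 3 weeks (adjusted p = 6.88e-04), Clec4a2 to 0.751-fold (adjusted p = 0.0169), the latter lost without naive replicate 1 (0.0567) or three-week replicate 1 (0.105). Clec12a fell between 1 week and 3 weeks (0.647-fold, adjusted p = 0.0041), lost without three-week replicate 1 (0.0564).

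Of 10 ITAM chains and coupled receptors tested, 1 was higher and 0 lower at 3 weeks against naive mice, 3 were higher and 1 lower against 1 week, and 1 was higher and 2 lower at 1 week. The 10% higher against naive mice at 3 weeks stood beside 12% of all genes tested. Against 1 week the shares were 30% and 10%, beside 12.9% and 9.57%. At 1 week they were 10% and 20%, beside 4.23% and 3.76%. The one higher against naive mice was Pira2, the activating counterpart of Pirb, with 217 and 183 CPM in naive mice, 128 and 114 CPM at 1 week and 346 and 284 CPM at 3 weeks (adjusted p = 0.00667 and 0.00358). Its reads may be shared with its near-identical paralogs, so its value is uncertain, and the fall was lost without naive replicate 1 (0.0966) or one-week replicate 2 (0.0772). Trem1, an amplifier of neutrophil responses that pairs with Tyrobp, fell to 0.668-fold at 1 week, from 499 and 546 to 370 and 328 CPM (adjusted p = 0.00889), which was lost without one-week replicate 2 (0.109). Between 1 week and 3 weeks Cd300ld rose (1.4-fold, adjusted p = 0.0157) and Pilrb1 fell (0.743-fold, adjusted p = 0.0357). Both calls were lost without one-week replicate 2 (0.195 and 0.0734) or three-week replicate 2 (0.129 and 0.0788), and that of Pilrb1 also without either other library (0.168 and 0.193).

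Of 6 other Fc receptors tested, 0 were higher in any comparison and 2 were lower at 3 weeks against either group. This was 33.3% each time, beside 9.42% of all genes tested against naive mice and 9.57% against 1 week. Fcmr, the receptor for IgM, had 3.01 and 2.95 CPM in naive mice and 0.70 and 0.46 CPM at 3 weeks (adjusted p = 0.00249). Fcrla, an Fc receptor-like protein of B cells, had 4.04 and 2.21 CPM in naive mice and 0.78 and 0.46 CPM at 3 weeks (adjusted p = 0.00316). Both are expressed by B cells, whose markers fell in the same libraries.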

How the data were processed

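RNA of Ly6G+ bone marrow cells was sequenced in 6 libraries. The authors deposited RSEM expected counts per gene against mm10 (GRCm38), given as whole numbers and not scaled across libraries. RSEM is version 1.2.31 in the submitters' processing notes, which also name Bowtie2 and DESeq2. The methods give another RSEM version and another read length than the labels, and the paper's legend gives 3 samples per group where the labels hold 2. Whether counting used strand was not given in the sources used here. RPKM were not used here.

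Symbols, positions and exon lengths came from GENCODE, which matched 37570 of 38887 identifiers, and TPM use the matched ones only. Genes passing filterByExpr (12259) were compared with edgeR 4.0.16 in R 4.3.3, by TMM scaling and the quasi-likelihood F test, in one model of all 6 libraries with group as the only factor. TMM factors lay between 0.9134 and 1.072. Adjusted p-values are Benjamini-Hochberg values over all genes tested. Log2 CPM for pattern likeness used a prior count of 2. Sequences came from GENCODE transcripts and RefSeq promoters, and alignments were made with Biopython 1.88. The fits were tested on simulated counts.

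The 9 genes, the lists and the markers were chosen with earlier results of these data known. Named genes were the 9, Tyrobp, Ptpn6, Inpp5d, Csk and Plcg2, and in each list at most the 2 genes with the smallest adjusted p in each direction and comparison among those called. The rule also took the 3 nearest patterns of the 3 widest-ranging genes and markers that stand beside a gene. One gene that the rule takes is not reported here. Src, Yes1 and Frk were named after their values were seen. The ITIM list held 16 genes, of which 14 matched. Replicate libraries of a group differed beyond counting noise (chi-square per degree of freedom 8.34 to 11.4), so none was counted as a duplicate. Alternatives were DESeq2 1.42.0 (with all 6 libraries or a pair of groups), edgeR with a pair of groups, size factors of DESeq2 or plain library size instead of TMM, no filter or 10 counts, a replicate block, the 3 receptors summed, and each library left out in turn.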

Additional observations from a re-analysis of the deposited data

Results flagged for a closer look

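Between the 2 times after injection, 4 of the 9 genes differed by the test of that difference itself in edgeR's quasi-likelihood fit, which is also the difference between their changes from naive mice. The log2 fold changes of 3 weeks against 1 week were 0.56 for Fcgr3, 0.75 for Fcgr4, 0.57 for Fgr and 0.61 for Lyn. Among the pathway genes named, Gab2 (1.24), Arpc3 (0.82), Pira2 (1.38) and Siglece (1.07) were called lower at 1 week and higher at 3 weeks against naive mice. Their falls at 1 week were lost when single libraries were left out, as given above. No cause was tested.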

How the results depend on the processing

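The log2 fold changes and calls of Fcgr3, Fcgr4, Fgr and Lyn between 3 weeks and 1 week kept their direction and their side of the threshold in all 14 other fits. Of the 9 genes, the number called at 1 week was 1 in both DESeq2 fits (1 and 1, Syk) and 0 with any library left out. At 3 weeks against naive mice it ranged from 1 to 4 with a library left out, and against 1 week from 4 to 4. Over all genes these ranges were 147 to 1145, 1362 to 2392 and 1502 to 2725, and over the pathway lists 1 to 13, 14 to 27 and 18 to 43. With no filter 1537 genes were called at 1 week, and DESeq2 on the groups compared called 1666 at 3 weeks against naive mice. In counts without length the ratio of Fcgr3 to Fcgr2b was 49.3, 34.2 and 67.3.

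The direction of uncalled values changed as follows. The sum of the 3 receptors had -0.24, 0.33 and 0.57, opposite in sign to Fcgr2b, but most of its counts were those of Fcgr3. Scaling by library size gave 0.019 for Fgr, 0.005 for Csk and 0.031 for Plcg2 at 1 week, -0.029 for Fcer1g at 3 weeks, and -0.047 for Syk and -0.14 for Inpp5d between the 2 times. With a library left out, the values at 1 week ran from -0.22 to 0.073 for Fcgr4 (above 0 without one-week replicate 2), -0.11 to 0.32 for Fcgrt (below 0 without naive replicate 2, -0.051, or one-week replicate 2), -0.14 to 0.063 for Fgr and -0.097 to 0.044 for Plcg2 (above 0 without naive replicate 2), and -0.15 to 0.035 for Csk (above 0 without one-week replicate 1). At 3 weeks they ran from -0.11 to 0.56 for Fcgr1 (below 0 without naive replicate 1 or three-week replicate 1, -0.045), -0.057 to 0.28 for Fcer1g (below 0 without naive replicate 1) and -0.052 to 0.78 for Fcgrt, and between the 2 times from -0.17 to 0.67 for Fcgrt (below 0 without three-week replicate 1). The cause was not tested.

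Same-numbered libraries did not deviate together (r = 0.010, 0.036 and 0.038 across genes). This cannot show whether they were collected or processed in pairs. With the number as a replicate block, 959, 2559 and 2709 genes were called in place of 979, 2626 and 2759, and 0, 3 and 4 of the 9 genes. In the pathway lists 11, 30 and 39 genes were called in place of 13, 30 and 41. With 2 libraries a group and 42 to 82 counts for Fcgr1, its intervals are wide. The one at 3 weeks against naive mice takes in the 0.69 measured for Fcgr4. A library left out leaves its group with 1, which is then assumed to vary like the other groups.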
